A study of Sus scrofa with 23 samples.

Results

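The 10 genes described here encode chaperones, regulators and degradation factors of the endoplasmic reticulum (ER): HSPA5, HSP90B1, CALR, CANX, PDIA4, SDF2L1, DNAJB9, HERPUD1, XBP1 and ERN1. They were chosen by symbol for their known roles, with earlier results of these data known, and all 10 were found among the 26687 genes to which the measured transcripts belong. RNA-Seq of kidney cortex was carried out on 23 newborn pigs after depletion of ribosomal RNA. By their labels, 11 pigs were CFTR-/- (CF), 6 were CFTR+/- (HET) and 6 were CFTR+/+ (WT), and the 12 HET and WT pigs together form the non-CF group. The piglets came from matings of CFTR+/- pigs, and each library came from another pig. No treatment is named in the labels. The paper describes isoflurane anesthesia and saline infusion of its newborn piglets, without saying which of them gave the kidney cortex for RNA. The labels give neither sex nor litter.

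Secreted and membrane proteins fold in the ER with the help of resident chaperones, and kidney tubule cells make many such proteins for their brush border and basolateral membranes. When unfolded proteins accumulate, the sensors IRE1, PERK and ATF6 start the unfolded protein response, which raises transcription of chaperone and degradation genes and slows translation. CFTR itself is a membrane protein that folds in the ER, where the calcium-dependent chaperone calnexin binds it.

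Libraries held 32901281 to 52952273 estimated counts, and 20921 genes passed the expression filter for CF against non-CF. CFTR, the targeted gene, was not lower in the libraries labelled CF: it averaged 2.26 ± 0.794 CPM (counts scaled to library size, SD, n = 6) in WT, 12.6 ± 2.76 CPM (SD, n = 6) in HET and 19.9 ± 3.21 CPM (SD, n = 11) in CF libraries. The names CF, HET and WT therefore stand for the labels throughout. The pigs were also split by number, separately within CF and within non-CF. CF pigs 1 to 6 and non-CF pigs 12 to 18 form the earlier-numbered set of 13 (6 CF, 3 HET, 4 WT). CF pigs 7 to 11 and non-CF pigs 19 to 23 form the later-numbered set of 10 (5 CF, 3 HET, 2 WT). The labels name no such sets, and the cut was made with earlier results of these data known. Fold changes of CF against non-CF are given within each set. CF pig 1 stood apart: it was the highest library for 14% of all genes, and its immediate early genes, which respond within minutes to stimulation, summed to 2110 CPM against 147 to 852 CPM in the other libraries. CF pig 1 was also the highest library for HSPA5, PDIA4, DNAJB9, XBP1, HERPUD1 and ERN1, so values without it are given for the fold changes and lists below. WT pig 12 also stood apart, as the lowest library for 11.5% of all genes, with immediate early genes at 852 CPM and 20.2% of its counts in its 10 highest genes. Kidney markers matched the tissue label, with proximal tubule markers summing to 8815 to 15205 CPM per library and no marker list with a gene at 0 throughout. In bulk RNA, fewer cells of a type and less RNA per cell cannot be told apart.

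The 10 genes spanned a wide range of abundance in newborn kidney cortex. Levels of different genes were compared in TPM, the share of a library's transcripts after division by transcript length. CALR (calreticulin, a soluble calcium-binding lectin chaperone) was the most abundant at 392 ± 93.0 TPM (mean ± SD over 23 libraries), above HSP90B1 (GRP94, the HSP90 of the ER) at 295 ± 71.7 TPM in 22 of 23 libraries. HSPA5 (BiP, the HSP70 of the ER, which also holds the stress sensors inactive) followed at 233 ± 61.3 TPM and was below HSP90B1 in 21 libraries. CANX (calnexin, the membrane-bound relative of calreticulin) had 170 ± 30.1 TPM. PDIA4, a protein disulphide isomerase, and XBP1, a transcription factor of the response, had 115 ± 23.7 and 99.1 ± 16.6 TPM and were not separated, since PDIA4 was the higher in only 15 of 23 libraries. HERPUD1, a membrane component of ER-associated degradation, had 39.7 ± 7.37 TPM, and DNAJB9 (ERdj4, a J-domain partner of HSPA5) had 18.4 ± 3.35 TPM. ERN1 (IRE1, the sensor that splices XBP1 RNA) and SDF2L1 (a luminal partner of HSPA5) were the least abundant at 7.74 ± 1.39 and 7.23 ± 3.27 TPM, and ERN1 was the higher in only 14 libraries. SDF2L1 was the most variable of the 10, with a coefficient of variation of 45.2% and a 5.07-fold span between its lowest and highest library.

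**Figure D1:**
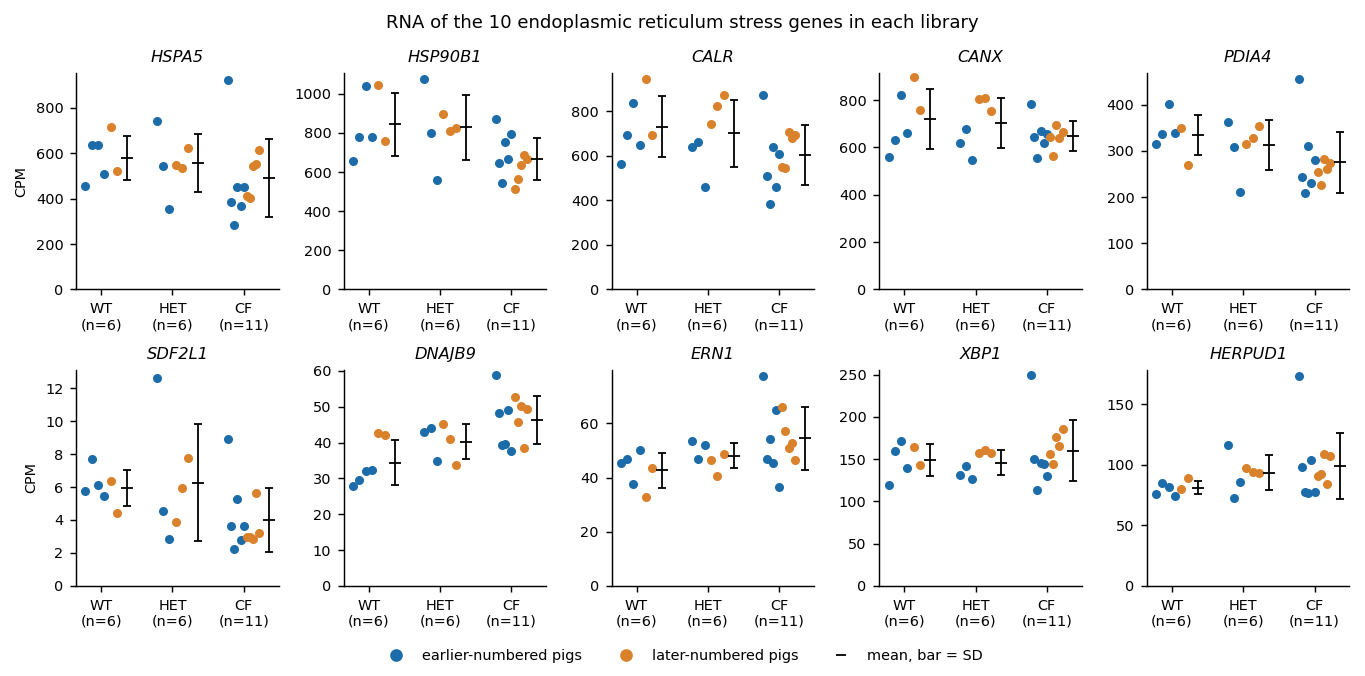
CPM of each of the 10 genes (y axes, from 0) in each library by label (x axes: WT n = 6, HET n = 6, CF n = 11), with 1 point per pig, earlier-numbered pigs in blue, later-numbered pigs in orange, and the group mean with its SD as a bar beside the points. The ranges of CF, HET and WT overlapped for every gene, and CF pig 1 was the highest point for 6 of the 10.

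The study's question of how CFTR genotype bears on the kidney was addressed for these genes by comparing the libraries labelled CF with those labelled non-CF. HSPA5, HSP90B1, CALR, CANX, PDIA4 and SDF2L1, called the 6 chaperones here, had lower fitted levels in CF, with a median log2 fold change of -0.24, while DNAJB9, ERN1, HERPUD1 and XBP1 had higher ones, with a median of 0.22. This grouping was made with the values known and follows their signs, since DNAJB9, a J-domain co-chaperone, stands with the others, so the medians are a description alone. None of the 10 passed an adjusted p of 0.05 with edgeR's quasi-likelihood test, where 0.349% of all 20921 genes did, or 17 (without HET pig 21) to 203 genes (without CF pig 4) with 1 library left out in place of 73. At an unadjusted p under 0.05, 2 of the 10 were higher and 3 lower, against 7.35% and 6.36% of all genes. Without CF pig 1 the count rose from 5 to 8 of 10, with 2 higher and all 6 chaperones lower, against 14.7% of all genes in both directions together, and 0 of 10 then passed the adjusted p, as did 0.410% of all genes. The count was 4 of 10 without CF pig 2, 3, 5, 7 or 8 or WT pig 16, 17 or 22, where the share of all genes over the 23 fits that left out 1 library ran from 11.7% to 15.1%. It was 1 of 10 in the earlier-numbered pigs alone, against 9.31% of all genes, and 7 of 10 in the later-numbered pigs alone, against 17.4%. DESeq2 called 1 of 10, DNAJB9, where it called 2.46% of all genes, and limma-voom called 0 of 10 and 0.220% of all genes, with 6 of 10 at an unadjusted p under 0.05 in each, against 14.3% and 13.1% of all genes. The median over the 10 was -0.17 against -0.00 over all genes, whose 5th to 95th percentiles ran from -0.30 to 0.31. Several of the 10, and of the genes listed below, varied together from pig to pig, so counts of them are not counts of independent results.

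HSPA5 (gene ID 407060, chr1:265930044-265934959, minus strand) ranged from 284 to 919 CPM (median 449.9) in the 11 CF libraries, from 355 to 739 (median 544) in the 6 HET libraries and from 453 to 715 (median 578) in the 6 WT libraries. The highest library was CF pig 1 and the lowest CF pig 3, so the CF range enclosed both other ranges, and 7 of 11 CF libraries were below the non-CF median. The mean was 489 ± 171 CPM (SD, n = 11) in CF and 567 ± 108 CPM (SD, n = 12) in non-CF libraries, and the log2 fold change was -0.21 (SE 0.148, edgeR adjusted p = 0.568). Without CF pig 1 it was -0.35 (adjusted p = 0.175). Within the earlier- and later-numbered pigs it was -0.22 and -0.21.

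HSP90B1 (chr5:80511513-80531016, minus strand), which folds a narrow set of receptors and integrins, ranged from 514 to 873 CPM (median 669) in the 11 CF libraries, from 561 to 1077 (median 819) in the 6 HET libraries and from 656 to 1046 (median 779) in the 6 WT libraries. The ranges overlapped, but 10 of 11 CF libraries were below the non-CF median and 4 non-CF libraries were above every CF library. The mean was 668 ± 108 CPM (SD, n = 11) in CF and 836 ± 157 CPM (SD, n = 12) in non-CF libraries. The log2 fold change was -0.32 (SE 0.103, edgeR adjusted p = 0.138), at an unadjusted p of 0.00427, and -0.37 (adjusted p = 0.0848) without CF pig 1. In the later-numbered pigs alone it was -0.49 with an adjusted p of 0.0318, where 2.27% of all genes were called, and in the earlier-numbered pigs it was -0.19 with an adjusted p of 0.753. The difference between the sets was not called for any of the 10 genes by an interaction term, which called 4 of 20921 genes.

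CALR (chr2:66098263-66102074, minus strand) and CANX (chr2:78879031-78915828, minus strand) bind the same monoglucosylated glycans on newly made glycoproteins. CALR ranged from 382 to 873 CPM (median 607) in the 11 CF libraries, from 459 to 873 (median 704) in the 6 HET libraries and from 565 to 943 (median 695) in the 6 WT libraries, and 9 of 11 CF libraries were below the non-CF median. Its log2 fold change was -0.25 (SE 0.121, edgeR adjusted p = 0.371) and -0.31 (adjusted p = 0.193) without CF pig 1, and -0.16 and -0.36 within the earlier- and later-numbered pigs. CANX ranged from 557 to 785 CPM (median 644) in the 11 CF libraries, from 547 to 809.6 (median 717) in the 6 HET libraries and from 558 to 896 (median 708) in the 6 WT libraries, with 10 of 11 CF libraries below the non-CF median and 4 non-CF libraries above every CF library. The log2 fold change of CANX was -0.13 (SE 0.0805, edgeR adjusted p = 0.493), and -0.16 (adjusted p = 0.334) at an unadjusted p of 0.0483 without CF pig 1. It was 0.02 in the earlier-numbered and -0.32 in the later-numbered pigs, an interaction of -0.35 (SE 0.137) with an unadjusted p of 0.0182 and an adjusted p of 0.370.

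PDIA4 (chr9:109260850-109280256, plus strand), which forms and rearranges disulphide bonds, ranged from 208 to 456 CPM (median 260.0) in the 11 CF libraries, from 211 to 362 (median 321) in the 6 HET libraries and from 269.5 to 402 (median 338) in the 6 WT libraries. CF pig 1 was above every non-CF library and the other 10 CF libraries were below the non-CF median. The log2 fold change was -0.24 (SE 0.109, edgeR adjusted p = 0.336), at an unadjusted p of 0.0402, and -0.33 (adjusted p = 0.0730) without CF pig 1. Without CF pig 3, the lowest library for PDIA4 and for 4 others of the 10 genes, it was -0.21 at an unadjusted p of 0.0588, and without HET pig 13 -0.22 at an unadjusted p of 0.0616 (edgeR). The earlier- and later-numbered pigs gave -0.17 and -0.31. SDF2L1 (chr14:50249607-50251636, minus strand), counted at only 100 to 592 estimated counts per library, ranged from 2.23 to 8.89 CPM (median 3.21) in the 11 CF libraries, from 2.85 to 12.6 (median 5.26) in the 6 HET libraries and from 4.41 to 7.71 (median 5.96) in the 6 WT libraries. Of the CF libraries 10 of 11 were below the non-CF median, and 3 were below every non-CF library. SDF2L1 had the largest fitted difference of the 10, at -0.61 (SE 0.226, edgeR adjusted p = 0.208) and an unadjusted p of 0.0117, and -0.80 (adjusted p = 0.0688) without CF pig 1, with -0.55 and -0.69 in the earlier- and later-numbered pigs.

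DNAJB9 (chr18:36578928-36584211, minus strand), which assists HSPA5 and restrains IRE1, ranged from 37.7 to 58.8 CPM (median 48.3) in the 11 CF libraries, from 33.8 to 45.0 (median 41.9) in the 6 HET libraries and from 27.8 to 42.5 (median 32.2) in the 6 WT libraries. The ranges overlapped, but 7 of 11 CF libraries were above every non-CF library and 6 of 12 non-CF libraries were below every CF library. The mean was 46.3 ± 6.78 CPM (SD, n = 11) in CF and 37.3 ± 6.18 CPM (SD, n = 12) in non-CF libraries. The log2 fold change was 0.31 (SE 0.0916, edgeR adjusted p = 0.108), at an unadjusted p of 0.00224, and 0.27 (adjusted p = 0.146) without CF pig 1. Without WT pig 12, the lowest DNAJB9 library, it was 0.28 (adjusted p = 0.140), and the earlier- and later-numbered pigs gave 0.39 and 0.22. With DESeq2 the adjusted p was 0.0408, and over all alternatives other than leaving out a library it ran from 0.0408 to 0.325.

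ERN1 (chr12:14881913-14963290, plus strand) ranged from 36.6 to 77.6 CPM (median 52.8) in the 11 CF libraries, from 40.7 to 53.5 (median 47.8) in the 6 HET libraries and from 32.7 to 50.1 (median 44.6) in the 6 WT libraries. Of the CF libraries 8 of 11 were above the non-CF median and 5 were above every non-CF library. The log2 fold change was 0.26 (SE 0.100, edgeR adjusted p = 0.225), at an unadjusted p of 0.0146, and 0.20 (adjusted p = 0.309) without CF pig 1, with 0.19 and 0.37 in the earlier- and later-numbered pigs. HERPUD1 (chr6:18901171-18913427, plus strand) ranged from 76.5 to 173 CPM (median 92.3) in the 11 CF libraries, from 72.2 to 117 (median 93.7) in the 6 HET libraries and from 74.2 to 89.1 (median 80.6) in the 6 WT libraries. CF pig 1, at 173 CPM, was the only CF library above the highest non-CF library, and the log2 fold change moved from 0.18 (SE 0.111, edgeR adjusted p = 0.495) to 0.07 (adjusted p = 0.744) when it was left out, and was 0.26 and 0.10 within the sets. XBP1 (chr14:46011239-46016526, minus strand) ranged from 114 to 249 CPM (median 150.1) in the 11 CF libraries, from 127 to 161 (median 149) in the 6 HET libraries and from 119.8 to 171 (median 151) in the 6 WT libraries, with CF libraries split 6 above and 5 below the non-CF median. Its log2 fold change was 0.12 (SE 0.0959, edgeR adjusted p = 0.655) and 0.03 (adjusted p = 0.896) without CF pig 1, and 0.14 and 0.09 within the sets.

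**Figure D2:**
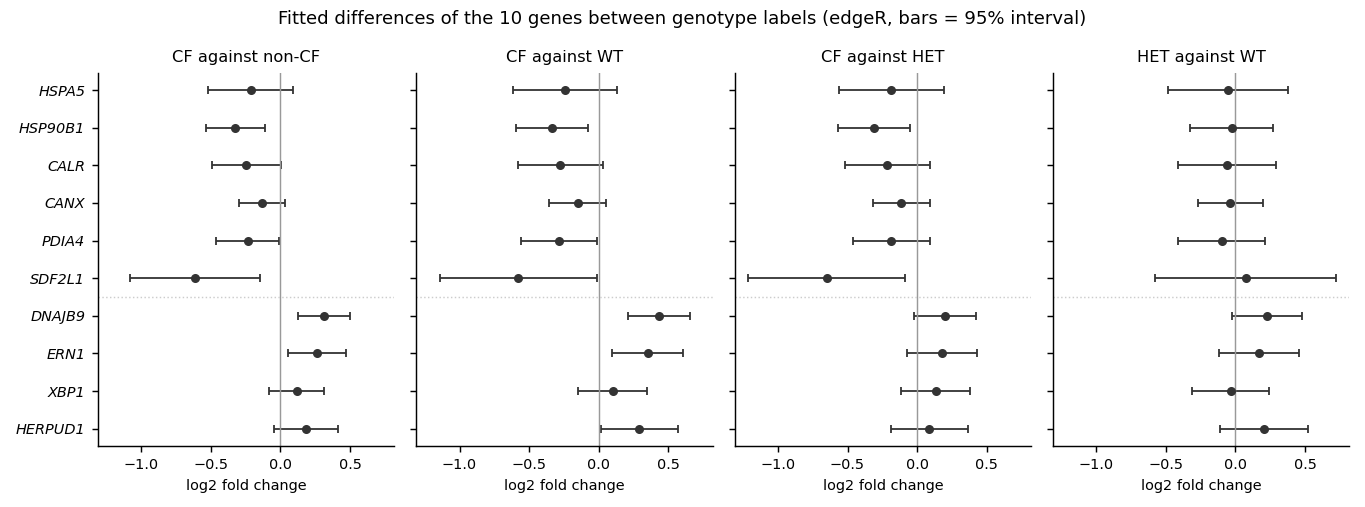
Log2 fold changes (x axis) of the 10 genes (y axis) for each genotype comparison, as edgeR estimates with 95% confidence intervals. For CF against non-CF the 6 chaperones lay between -0.61 and -0.13 and the other 4 genes, DNAJB9 among them, between 0.12 and 0.31, a grouping that follows the signs, and no gene passed an adjusted p of 0.05.

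The labels HET and WT were then taken apart. Against WT alone, 0 of the 10 genes passed the adjusted p with edgeR (0.336% of 21434 genes did), and at an unadjusted p under 0.05, 3 were higher and 3 lower in CF, against 7.55% and 6.41% of all genes. This count of 6 fell to 3 without CF pig 5, CF pig 11, WT pig 17, WT pig 18 or WT pig 22 and was 7 without CF pig 1, where 11.7% to 14.8% of all genes had such a p over the 23 fits that left out 1 library. DNAJB9 came nearest, with all 11 CF libraries above the WT median and a log2 fold change of 0.43 (SE 0.108, edgeR adjusted p = 0.0685). It was 0.57 in the earlier- and 0.18 in the later-numbered pigs, 0.39 without CF pig 1 and 0.38 (adjusted p = 0.146) without WT pig 12. DESeq2 called DNAJB9 alone, where it called 2.68% of all genes, and edgeR with upper-quartile normalization did so where it called 0.649%. limma-voom called 0 of the 10 and 0.303% of all genes. ERN1 was at 0.35 (SE 0.123, edgeR adjusted p = 0.184) and HERPUD1 at 0.29 (SE 0.135, edgeR adjusted p = 0.330), and without CF pig 1 they were at 0.29 and 0.18, the latter at an unadjusted p of 0.0679. HSP90B1, PDIA4 and SDF2L1 were lower in CF than in WT by fitted values of -0.34 (SE 0.126, edgeR adjusted p = 0.215), -0.28 (SE 0.133, edgeR adjusted p = 0.332) and -0.58 (SE 0.274, edgeR adjusted p = 0.345). Without CF pig 1 these were -0.38, -0.38 and -0.76, and HSPA5 and CALR were then at -0.37 and -0.34, with adjusted p between 0.0846 and 0.250 for the 5 genes. HSP90B1 was at -0.20 in the earlier- and -0.54 in the later-numbered pigs, and ERN1 at 0.26 and 0.53.

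Against HET, 0 of 10 genes passed with edgeR, as did 0% of all 21434 genes. With DESeq2 and limma-voom 0 of 10 also passed, where they called 63 and 0 of 21434 genes. HSP90B1, at -0.31 (SE 0.126, edgeR adjusted p = 0.423), and SDF2L1, at -0.65 (SE 0.273, edgeR adjusted p = 0.444), were the 2 of 10 that were lower at an unadjusted p under 0.05, against 4.28% of all genes, and 0 were higher, against 5.55%. Without HET pig 13 neither was, at -0.22 (unadjusted p = 0.0970) and -0.33 (unadjusted p = 0.221) with edgeR, and without CF pig 1 there were 4 of 10 lower, against 11.8% of all genes in both directions together, with HSPA5 at -0.32 and PDIA4 at -0.28 besides. The comparisons of CF with WT, HET and non-CF share the CF libraries, and are not independent of each other. Between HET and WT, 0 of 10 passed with edgeR (0.00467% of all genes did), DESeq2 (34 of 21434 genes) or limma-voom (1 of 21434). With each of them 0 of 10 were at an unadjusted p under 0.05. Of all genes at such a p, edgeR had 4.13% higher and 3.87% lower, and DESeq2 and limma-voom had 1811 and 1682 in both directions together. DNAJB9 differed most at 0.23 (SE 0.121, edgeR adjusted p = 0.654), with a 95% interval of -0.02 to 0.48, and all 6 HET libraries were above the WT median. It was 0.42 in the earlier- and -0.07 in the later-numbered pigs, and 0.18 (adjusted p = 0.866) without WT pig 12. HSPA5 was at -0.06 with an interval of -0.49 to 0.37, so changes within that interval could not be told from 0 with 6 libraries a group.

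Beyond the 10 genes, other genes of ER proteostasis and of neighbouring stress responses were read from the same fit of CF against non-CF. Of 35 further ER chaperones and folding enzymes, 0 passed the adjusted p, and 0 were higher and 9 lower at an unadjusted p under 0.05, against 7.35% and 6.36% of all genes. Their median log2 fold change was -0.11. PDIA6, a disulphide isomerase, was at -0.30 (SE 0.0846, edgeR adjusted p = 0.0986) and CRELD2, an ER stress-inducible isomerase, at -0.52 (SE 0.162, adjusted p = 0.126). The prolyl isomerase PPIB and the glycoprotein disulphide isomerase PDIA3 were at -0.25 and -0.23, with adjusted p of 0.188 and 0.217. Without CF pig 1, 14 of the 35 were lower and 0 higher at an unadjusted p under 0.05, against 14.7% of all genes in both directions together, with a median of -0.15. PDIA6 then passed at -0.35 (SE 0.0772, edgeR adjusted p = 0.0426), where 0.410% of all genes did.

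Among 31 genes of the translocon, signal peptidase and oligosaccharyltransferase, 4 were lower and 0 higher at an unadjusted p under 0.05 (median -0.06), against 6.36% and 7.35% of all genes, with SEC11C, a catalytic signal peptidase subunit, at -0.28 (adjusted p = 0.263). ER-associated degradation, with 25 genes, held 1 higher (HERPUD2, 0.18) and 1 lower (DERL3, -0.51), and its median was -0.00. None of 9 genes of the glycoprotein folding cycle reached an unadjusted p under 0.05 (median -0.09). Of 16 sensors and transcription factors of the response, only MBTPS2, a protease that releases ATF6, did so, at 0.12 (adjusted p = 0.294), and the list's median was 0.09. None of these genes passed the adjusted p. When CF pig 1 was left out, the translocon list still held 4 lower and 0 higher at an unadjusted p under 0.05, the glycoprotein folding cycle held 2 lower, ER-associated degradation 1 higher and 2 lower, and the sensors 1 higher, against 14.7% of all genes in both directions together. With the labels apart, the translocon list held 0 higher and 0 lower in CF against WT and against HET. ER-associated degradation held 4 higher and 0 lower in CF against WT, 1 and 1 against HET, and 6 and 0 in HET against WT. Of all genes 7.55% were higher and 6.41% lower in CF against WT, 5.55% and 4.28% against HET, and 4.13% and 3.87% in HET against WT.

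The targets of the PERK-ATF4 arm held the 1 listed stress gene that passed: SESN2, a leucine sensor and antioxidant gene, rose in CF from 32.7 ± 4.39 CPM (SD, n = 12) to 62.7 ± 32.5 CPM (SD, n = 11), a log2 fold change of 0.94 (SE 0.201, edgeR adjusted p = 0.0415). Of the 12 targets, 5 were higher and 1 lower at an unadjusted p under 0.05, against 7.35% and 6.36% of all genes, with a median of 0.17. Without CF pig 1, 3 were higher and 2 lower, against 14.7% of all genes, with a median of 0.12. CEBPD, DDIT4, ATF3 and CHAC1 were at 0.46, 0.33, 0.78 and 0.91, with adjusted p between 0.147 and 0.348, and VLDLR was at -0.23. ATF3 and CHAC1 moved to 0.08 and 0.54 without CF pig 1, while SESN2 stayed at 0.93 (adjusted p = 0.0463). On the log2 scale the change of SESN2 ran from 0.77 to 1.02 over the 23 fits that left out 1 library, and its call was lost in 14 of them, the adjusted p running from 0.0150 to 0.0858. SESN2 was at 0.32 in the earlier- and 1.52 in the later-numbered pigs. The call was also lost in the earlier-numbered pigs alone and with limma-voom, the adjusted p over 9 other alternatives running from 0.00239 to 0.658. The difference of later- from earlier-numbered pigs in this fold change was 1.19 (SE 0.297, edgeR adjusted p = 0.140).

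Cytosolic heat shock genes, which respond to misfolding outside the ER, held 2 higher and 6 lower among 23 at an unadjusted p under 0.05, against 7.35% and 6.36% of all genes, with a median of -0.11, and 2 higher and 9 lower without CF pig 1, against 14.7% of all genes in both directions together. FKBP4, an HSP90 co-chaperone, was at -0.38 (adjusted p = 0.0941) and the small heat shock protein gene HSPB1 at -0.46, while BAG3, a co-chaperone of HSP70 in autophagy, was at 0.51. Among mitochondrial chaperones, HSPE1 and HSPD1, the co-chaperonin and chaperonin of the matrix, were at -0.50 and -0.38 with adjusted p of 0.0654 and 0.0831, and the list of 11 held 1 higher and 2 lower, with and without CF pig 1. Immediate early genes had the highest median, 0.44 over 13 genes, with JUN at 1.09 and JUNB at 1.08 the 2 at an unadjusted p under 0.05, but this rested on CF pig 1. Without it the median was -0.17, JUN and JUNB were at 0.05 and 0.25, and 0 were higher and 3 lower at an unadjusted p under 0.05, against 14.7% of all genes in both directions together, with FOS at -2.32 (adjusted p = 0.148). WT pig 12, at 852 CPM of immediate early genes, was then the highest library, and the lists were not tested without both pigs.

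Marker genes of kidney cell types were read beside these lists, against the same 7.35% of all genes higher and 6.36% lower at an unadjusted p under 0.05. Loop of Henle and distal tubule markers summed to 1362 to 1827 CPM in CF and 1436 to 2523 CPM in non-CF libraries, and 3 of 9 were lower at an unadjusted p under 0.05. Proximal tubule markers summed to 10081 to 15205 CPM in CF and 8815 to 15201 CPM in non-CF, with 3 of 14 higher, and erythroid markers summed to 142 to 455 and 183 to 314 CPM, with 4 of 12 lower. Markers of B and plasma cells, which make much ER, summed to only 8.88 to 15.3 and 9.63 to 12.3 CPM. No marker gene passed the adjusted p for CF against non-CF. Against WT the water channel gene AQP1, a proximal tubule marker, was higher in CF at 0.93 (SE 0.187, edgeR adjusted p = 0.0303), a call lost in 7 of 23 fits that left out 1 library and kept without CF pig 1 (0.88, adjusted p = 0.0370). When CF pig 1 was left out, the counts against non-CF were 3 lower for loop of Henle and distal tubule markers, 3 higher for proximal tubule and 5 lower for erythroid markers, against 14.7% of all genes in both directions together, and the part of cell composition in the chaperone values was not tested.

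**Figure D3:**
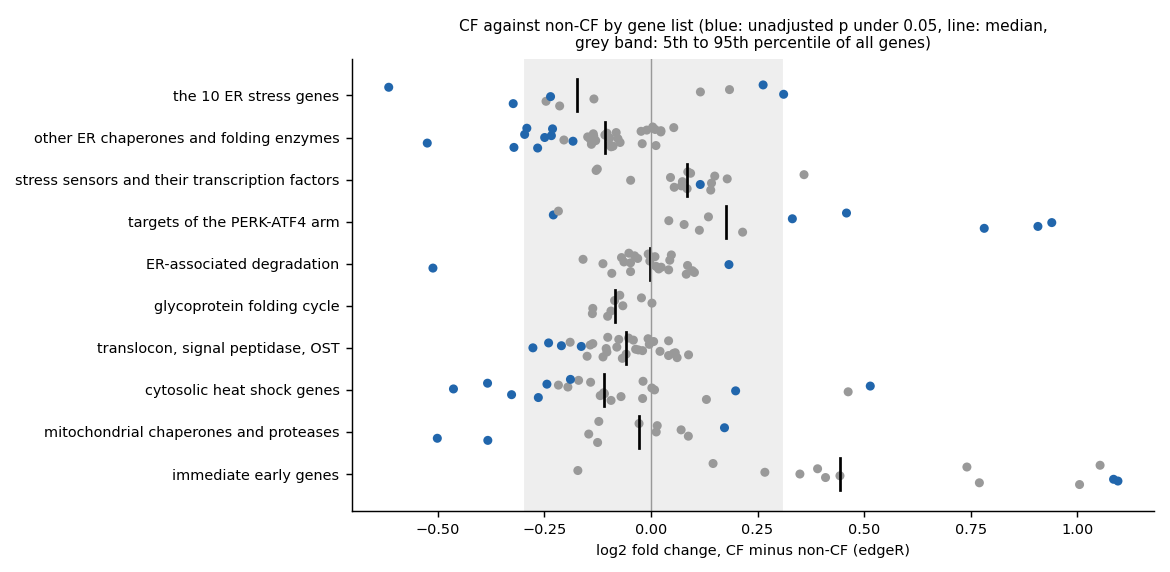
Log2 fold change of CF against non-CF (x axis, edgeR) for every gene tested in each list (y axis, 1 point per gene), in blue at an unadjusted p under 0.05, with the median of each list as a line and the 5th to 95th percentiles of all genes as a grey band. The 35 other ER chaperones lay between -0.52 and 0.05 around a median of -0.11, and SESN2, at 0.94, was the listed stress gene that passed an adjusted p of 0.05.

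Whether the chaperones varied together from pig to pig was asked by correlating log2 CPM of HSPA5 with every other tested gene over the 23 libraries. Of the 9 other genes, 6 followed HSPA5 at an adjusted p under 0.05 and r above 0, against 1.25% of all 20920 genes: CALR, PDIA4, SDF2L1, HSP90B1, XBP1 and CANX. DNAJB9, ERN1 and HERPUD1 did not. All genes were read from the same libraries and depths, so genes are not independent replicates, and adjusted p-values of correlations are over all 20920 genes.

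CALR had a Pearson r of 0.88 and a Spearman rho of 0.85 with HSPA5, the third highest r of all genes, and PDIA4 had 0.87 and 0.83, the fifth highest. Both had a permutation p of 1e-05, the smallest that 100000 permutations can give, and an adjusted p of 0.0123. Within the earlier- and later-numbered pigs r was 0.92 and 0.90 for CALR and 0.94 and 0.78 for PDIA4. SDF2L1 had r 0.80 and rho 0.80 (permutation adjusted p = 0.0157), with 0.92 and 0.63 within the sets. HSP90B1 had r 0.77 and rho 0.79 (permutation adjusted p = 0.0123), with 0.85 and 0.81 within the sets.

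XBP1 and CANX followed less closely. XBP1 had r 0.70 and rho 0.63, with permutation adjusted p of 0.0341 and 0.108, and r within the sets was 0.72 and 0.53. CANX had r 0.66 and rho 0.58, with permutation adjusted p of 0.0464 and 0.136, and r within the sets was 0.68 and 0.71. Leaving out CF pig 3 and CF pig 1, the libraries farthest from the HSPA5 median, gave r of 0.85 for CALR, 0.81 for PDIA4, 0.73 for SDF2L1, 0.78 for HSP90B1, 0.45 for XBP1 and 0.59 for CANX. Of the 9 genes 3 then passed the adjusted p, and the share of all genes that passed without both libraries is not given here. With 1 library left out in turn, the call of CANX was lost in 15 of 23 fits, that of XBP1 in 7 and that of HSP90B1 in 1, while CALR, PDIA4 and SDF2L1 kept theirs. Of these 6 genes, XBP1 had the largest fall in r without both libraries.

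HERPUD1 had r 0.46 and rho 0.26, with an r adjusted p of 0.199 by permutation, and r was 0.10 without both farthest libraries. DNAJB9, whose protein binds HSPA5, had r 0.08 and rho -0.01 (permutation adjusted p = 0.875 for r), with 0.14 and -0.43 within the sets. ERN1 had r -0.11 and rho -0.19 (permutation adjusted p = 0.812 for r), with 0.17 in the earlier- and -0.80 in the later-numbered pigs. After the mean of each genotype in each set was subtracted, r was 0.93 for CALR, 0.95 for PDIA4, 0.84 for HSP90B1 and XBP1, 0.67 for HERPUD1, 0.44 for DNAJB9 and 0.10 for ERN1.

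The 6 chaperones and the other 4 genes were grouped by the signs of their fold changes in these same libraries, and this grouping bears on r. As a description without a test, the 15 pairs among the 6 chaperones had r between 0.40 and 0.88 with a median of 0.77. The 6 pairs among DNAJB9, ERN1, HERPUD1 and XBP1 had r between 0.23 and 0.68 with a median of 0.54. The 24 pairs that joined a chaperone to one of those 4 genes ran from -0.45 to 0.70 with a median of 0.16. After the mean of each genotype in each set was subtracted, the medians were 0.83, 0.60 and 0.44, the last with a range of -0.22 to 0.84.

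The 5 genes outside the 10 with the highest r to HSPA5 were DNAJB11 (0.89), CRELD2 (0.89), HYOU1 (0.88), MANF (0.87) and DNAJC3 (0.86), all of which encode ER luminal proteins: J-domain partners of HSPA5, its nucleotide exchange factor and secreted stress factors. Each had a permutation p of 1e-05 and an adjusted p of 0.0123. Of the 30 genes with the highest r, 4 were among the 10 described here, 9 were other listed ER chaperones, 4 were cytosolic heat shock genes and 1 was of the translocon list. At the other end were LOC106508978 (-0.78), NEDD4L (-0.78), a ubiquitin ligase that targets the epithelial sodium channel, LOC110257187 (-0.76), LOC110261223 (-0.75) and LOC110261762 (-0.74).

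Across the lists, where 1.25% of all genes followed HSPA5, 13 of 35 other ER chaperones followed HSPA5 with a median r of 0.60, 9 of 31 translocon genes with 0.59 and 3 of 9 glycoprotein folding cycle genes with 0.51, where the median over all genes was 0.00 and the 5th to 95th percentiles were -0.47 to 0.53. In the cytosol, 9 of 23 heat shock genes followed, among them HSP90AA1 (0.84), STIP1 (0.84) and HSPH1 (0.82). ER-associated degradation held 5 of 25, led by DERL2 (0.77) and SELENOS (0.73), both parts of the retrotranslocation complex. The PERK-ATF4 targets held 1 of 12, the amino acid transporter subunit SLC3A2 (0.67), and 0 of 13 immediate early genes followed. No gene of any cell type marker list followed HSPA5.

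**Figure D4:**
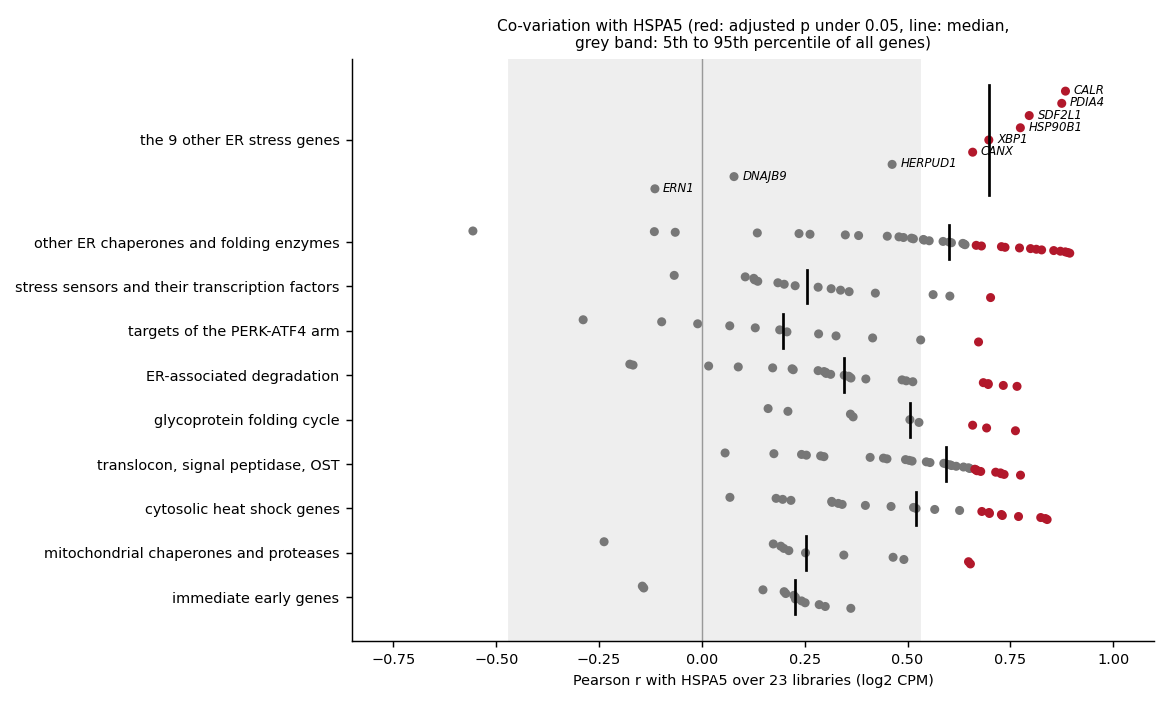
Pearson r with HSPA5 over the 23 libraries (x axis, from log2 CPM) for the other 9 genes and every gene of each list (y axis, 1 point per gene), in red where the permutation adjusted p was under 0.05, with the median of each list as a line and the 5th to 95th percentiles of all genes as a grey band. CALR (r 0.88) and PDIA4 (r 0.87) lie at the right, while DNAJB9 (r 0.08) and ERN1 (r -0.11) lie inside the band near 0.

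The promoters of these genes were searched because many ER chaperones are transcribed through the ER stress response element (ERSE), which ATF6 binds together with NF-Y. The element was spelled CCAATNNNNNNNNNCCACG, searched on both strands in the 250 bases before each gene's annotated start. It was found in 4 of the 10 promoters, HSP90B1, CALR, CANX and XBP1, and in 14 of 19531 promoters of protein-coding genes (0.0717%). The related ERSE-II, spelled ATTGG, any base, then CCACG, was found in SDF2L1 and in 17 of all promoters (0.0870%). The XBP1-type core, TGACG followed directly by TGG, was in 0 of the 10 and in 0.543% of all promoters, while CCACG alone, which the ERSE contains, was in 7 of the 10 and in 35.1% of all. A match is a run of letters and not a measured binding site. The element is known from ER chaperone genes, so its share in the 10 against all promoters is a description and not a test. HSPA5, PDIA4 and HERPUD1 held no exact match to any of these motifs in this window, and near matches were not searched.

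Every ERSE and ERSE-II match in the 10 promoters is shown, to give its place and orientation before the start. The stretches are from Sscrofa11.1, minus strand, in the gene's direction 5′ to 3′, with the motif in capitals, and CGTGG first means that it is read on the opposite strand.
HSP90B1, chr5:80531113-80531171, motif from 135 bases before the start: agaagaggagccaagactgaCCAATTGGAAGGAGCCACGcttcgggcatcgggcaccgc
HSP90B1, chr5:80531017-80531067, motif from 31 bases before the start: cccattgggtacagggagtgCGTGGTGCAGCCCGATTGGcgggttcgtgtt
CALR, chr2:66102270-66102324, motif from 234 bases before the start: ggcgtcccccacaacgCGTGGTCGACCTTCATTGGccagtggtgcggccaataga
CANX, chr2:78915936-78915994, motif from 146 bases before the start: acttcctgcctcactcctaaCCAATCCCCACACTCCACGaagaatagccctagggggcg
XBP1, chr14:46016570-46016628, motif from 82 bases before the start: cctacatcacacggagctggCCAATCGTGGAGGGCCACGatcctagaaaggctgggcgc
SDF2L1, ERSE-II, chr14:50251732-50251782, motif from 126 bases before the start: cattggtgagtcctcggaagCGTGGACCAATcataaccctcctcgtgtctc

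XBP1 RNA carries a second readout of the response. Active IRE1 removes a segment of 26 bases from XBP1 RNA, which shifts the reading frame and yields the active transcription factor. The annotation holds an unspliced transcript of 1768 bases with a reading frame of 263 residues and a spliced one of 1742 bases with 378 residues. One placement of the segment in exon 4 is chr14:46012762-46012787 of Sscrofa11.1, on the minus strand, and the sequences around it (chr14:46012738-46012811) are printed 5′ to 3′ with those bases in capitals. The bases gcagca both begin the capitals and follow them, so the sequences of both forms do not fix the ends of the segment, which may lie up to 6 bases further along.
XBP1 unspliced: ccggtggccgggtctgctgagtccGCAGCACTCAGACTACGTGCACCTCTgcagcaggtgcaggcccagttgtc
XBP1 spliced: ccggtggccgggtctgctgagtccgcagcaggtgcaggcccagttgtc

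The spliced form made up 8.98% ± 3.98 (SD, n = 11) of XBP1 estimated counts in CF, 7.24% ± 3.29 (SD, n = 6) in HET and 6.24% ± 4.98 (SD, n = 6) in WT libraries. It ranged from 5.06% to 18.1% (median 7.91%) in CF, from 3.22% to 11.3% (median 6.70%) in HET and from 2.87% to 15.5% (median 3.87%) in WT. The ranges overlapped: CF pig 1 was the highest of all, WT pig 18 the next, and the other 5 WT libraries were at 8.34% or below. CF exceeded non-CF by 2.25 percentage points (two-sided permutation test, p = 0.197). CF exceeded WT by 2.75 points (exact permutation test, p = 0.231) and HET by 1.75 points (exact permutation test, p = 0.384), and HET exceeded WT by 1.0 point (exact permutation test, p = 0.706).

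Single libraries moved these differences. Without WT pig 18 the difference of CF from WT was 4.60 points (exact permutation test, p = 0.0114), and without CF pig 1 it was 1.83 points (exact permutation test, p = 0.356). CF exceeded non-CF by 1.33 points (permutation test, p = 0.385) and HET by 0.832 points (exact permutation test, p = 0.592) without CF pig 1. CF exceeded HET by 4.81 points in the earlier-numbered pigs (exact permutation test, p = 0.0476) and was 1.40 points lower in the later-numbered ones, a difference of -1.40 (exact permutation test, p = 0.643). HET was lower than WT in the earlier-numbered pigs, by a difference of -3.12 (exact permutation test, p = 0.514), and higher by 6.66 points without overlap in the later-numbered ones, where 3 HET against 2 WT libraries allow no p below 0.200 in this exact permutation test (p = 0.200). Without WT pig 18 HET exceeded WT by 2.85 points (exact permutation test, p = 0.143). The comparison was added after the files had been seen and its p-values are not adjusted over the 4 comparisons. Only reads that span the removed bases separate both forms, and unprocessed XBP1 RNA counts as unspliced.

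Across the 23 libraries the spliced share had r 0.50 and rho 0.47 with log2 CPM of ERN1, whose product does the splicing (permutation p = 0.0159 for r, adjusted p = 0.815). Within the earlier- and later-numbered pigs r was 0.52 and 0.46, and it was 0.31 without CF pig 1 and WT pig 18, the libraries farthest from the median share. HERPUD1 had r 0.49 (permutation p = 0.0196, adjusted p = 0.815) and HSPA5 had r 0.16 (permutation p = 0.463). No gene of 20921 passed the adjusted p by this permutation test, and 1274 had an unadjusted p under 0.05.

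**Figure D5:**
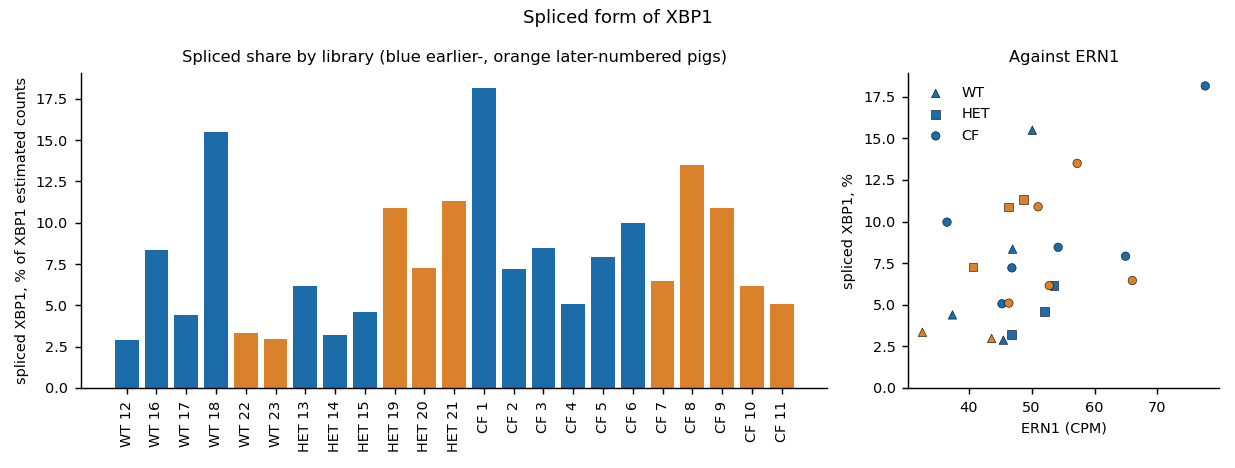
Left, spliced share of XBP1 estimated counts (%, y axis, 1 bar per library) by label and pig number, with earlier-numbered pigs in blue and later-numbered pigs in orange. Right, the same share against ERN1 in CPM (x axis) for the 23 libraries, with the label as the shape of the point. CF pig 1 (18.1%) and WT pig 18 (15.5%) have the highest shares.

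The other 9 genes were measured through 14 annotated transcripts in all. HSPA5 counts came almost entirely from a transcript of 2523 bases (99.5% ± 0.351, mean ± SD over 23 libraries), and HSP90B1 counts from one of 2732 bases (82.4% ± 1.46). CANX differed: the share of its transcript of 4306 bases was 12.5% to 16.1% in 8 libraries, 30.3% to 33% in 6 and 44.8% to 50.3% in 9, with no library between. The transcript of 4373 bases holds an exon segment of 88 bases at chr2:78903176-78903263 that the shorter one lacks. CF libraries numbered 5, 3 and 3 in these sets, HET 2, 1 and 3, and WT 1, 2 and 3. All 8 libraries of the first set were of earlier-numbered pigs, while earlier- and later-numbered pigs numbered 3 and 3 in the second and 2 and 7 in the third. What separates these sets was not tested.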

How the data were processed

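Total RNA of kidney cortex from 23 newborn pigs was depleted of ribosomal RNA and sequenced from stranded libraries. The authors pseudoaligned reads with kallisto to transcripts of Sscrofa11.1 and deposited an estimated count and a TPM value for each of 77689 transcripts. The deposited estimated counts are not normalized, and 64.0% were not whole. Per the file headers the TPM values accompany those counts, and they divide by effective length and add up to the same sum in each library. All estimated counts of a symbol were added up, which gave 26687 genes, and rounded. At the depths found, 3 counts correspond to 0.0567 to 0.0912 CPM, which reflects counting error alone.

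Tests used edgeR 4.0.16 under R 4.3.3 (TMM, filterByExpr, quasi-likelihood, Benjamini-Hochberg adjustment over all genes tested, limit 0.05). CF was compared with non-CF, and the 3 labels pairwise in a fit of all 23 libraries. Log2 CPM used a prior count of 2. Correlations with HSPA5 were tested with 100000 permutations. Software was Python 3.11.15 (pandas 2.3.3, scipy 1.17.1, numpy 2.4.6), matplotlib 3.10.9 and pysam 0.24.0, which read promoters and the XBP1 segment from the RefSeq genome of Sscrofa11.1. Alternatives covered DESeq2 1.42.0, limma-voom and limma 3.58.1 on log2(TPM + 0.5), an exact Mann-Whitney test, other normalizations and filters, a term for the pig number set, each set alone and each library left out. The edgeR, DESeq2, limma and correlation steps were tested on simulated data.

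The 10 genes, the gene lists and the markers were chosen with earlier results of these data known. Genes outside the 10 were named by rule: CFTR, the 5 with the highest and the 5 with the lowest r to HSPA5, and up to 4 per list by smallest p and by highest r. The split by pig number was made separately within CF and within non-CF, and is not a batch named in the labels. Replicates are separate pigs by their labels.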

Additional observations from a re-analysis of the deposited data

Results flagged for a closer look

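In the 6 HET libraries, PDIA4 was at 211 CPM in pig 15 and between 308 and 362 CPM in the other 5. The gap to the nearest library was 0.644 of the group's range, above the Dixon limit of 0.625 for 6 samples. Of 24 values of the HET and WT groups checked in this way, 1 stood apart, and chance sets apart about 1 in 20. The CF group, with 11 libraries, was not checked, since no limit was set for groups of more than 10.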

How the results depend on the processing

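The count of the 10 genes called stayed at 0 in CF against HET and HET against WT under every alternative run. For CF against non-CF it was 1 with DESeq2 (DNAJB9, adjusted p 0.0408) and 1 in the later-numbered pigs alone (HSP90B1, adjusted p 0.0318), and 0 under the 9 other alternatives and with any 1 library left out. For CF against WT it was 1 with DESeq2 and 1 with upper-quartile normalization, both DNAJB9, and 0 to 1 with 1 library left out (DNAJB9 without CF pig 4 or WT pig 23). All genes called for CF against non-CF numbered 73 with edgeR, 515 with DESeq2, 46 with limma-voom, 148 with the pig number set as a term, 0 in the earlier- and 473 in the later-numbered pigs alone, and 17 to 203 with 1 library left out. Those called for CF against WT numbered 72 with edgeR, 575 with DESeq2 and 7 in the earlier-numbered pigs alone, and 20 (without WT pig 12) to 187 (without WT pig 23) with 1 library left out. Those called for CF against HET reached 525 in the later-numbered pigs alone, and those for HET against WT reached 34 with DESeq2. Why these differ was not tested. No paired analysis was possible because the pig numbers are unique to each label.

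The count of genes that followed HSPA5 was 6, 3 in the earlier- and 0 in the later-numbered pigs alone, 3 without the 2 farthest libraries, and 3 to 6 with 1 library left out (3 without CF pig 3). Fewer libraries enter the first 3 of these. The share of all genes that followed HSPA5 is given only for all 23 libraries, so a general loss of calls cannot be told apart.

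Fold changes near 0 changed sign. CANX was at 0.025 for CF against non-CF and 0.084 for CF against HET in the earlier-numbered pigs, and HERPUD1 ran from -0.029 (without CF pig 1) to 0.16 for CF against HET. For HET against WT the later-numbered pigs gave 0.11 for PDIA4, -0.073 for DNAJB9 and 0.058 for XBP1, and limma-voom gave -0.066 for SDF2L1. With 1 library left out that contrast ran from -0.15 to 0.049 for HSPA5, -0.12 to 0.068 for HSP90B1, -0.13 to 0.039 for CALR, -0.095 to 0.043 for CANX, -0.086 to 0.014 for XBP1 and -0.25 to 0.22 for SDF2L1.

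The r of DNAJB9 with HSPA5 was -0.012 as Spearman rho, -0.43 in the later-numbered pigs, -0.19 without the 2 farthest libraries and -0.15 to 0.16 with 1 left out. That of HERPUD1 was -0.10 in the later-numbered pigs, and that of ERN1 was 0.10 on residuals, 0.17 in the earlier-numbered pigs and -0.48 to 0.0088 with 1 left out. The XBP1 spliced share of CF exceeded that of WT by 1.83 to 4.60 points with 1 library left out. Its difference from HET was 4.81 in the earlier- and -1.40 in the later-numbered pigs, and that of HET from WT -3.12 in the earlier- and 6.66 in the later-numbered pigs.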
